A study of Homo sapiens with 10 samples.

Results

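Genes and transposable elements that stood apart from the luciferase control in the same direction under all 4 knockdowns of this study were examined in H1, a widely used human embryonic stem cell line. A row of the table was kept when all 8 knockdown libraries lay above both control libraries or all 8 lay below both. This held for 579 of 14785 rows (3.92%), 304 above (2.06%) and 275 below (1.86%). Of the 579, 535 were genes and 44 were subfamilies of transposable elements (TEs). The rule itself uses the measured values, so the direction of a kept row is a description and supports nothing further. With only 2 control libraries, rows can also meet the rule with no effect of any hairpin. The count of 579 is therefore not a measure of a shared response. Because the same 2 control libraries enter every comparison, the state of the control cells and a response to any hairpin cannot be told apart in these data.

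The study sought regulators of chromatin folding at TEs, and RNA-seq was 1 of its measurements. Every group was H1 cells of wild-type genotype that received packaged virus with a short hairpin RNA (shRNA), followed by puromycin selection and isolation of total RNA. The 5 groups were the control hairpin against luciferase (shLUC) and hairpins against SMARCA4, the ATPase of BAF chromatin remodelling complexes; MAFK, a small MAF factor; E2F6, a repressive member of the E2F family; and KDM1A, a histone demethylase. Each group had 2 libraries, and the labels name 1 shRNA treatment per target, so a gene's knockdown and other effects of its hairpin are not separable. The design text calls the experiments biological duplicates without saying from which cultures they came, so p-values measure the spread between these libraries.

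A short hairpin RNA is cut by Dicer into a small duplex, and 1 strand guides an Argonaute protein to matching transcripts. A hairpin against luciferase passes through the same steps but has no gene of its own to find in human cells, which is why it serves as a control. Embryonic stem cells depend on a basement membrane of laminins, on Wnt signals read by Frizzled receptors, and on chromatin factors that hold germline genes and TEs silent. The rows described here are grouped by those functions.

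Values are normalized tag counts with nearly equal library totals (22836548 to 22855295) and the same median of 594 in each library, so the sequencing depth is unknown. The pluripotency markers fixed for H1 cells were present: SOX2 held 4426 to 7680 and NANOG 1640 to 4613 over the 10 libraries. Of 23 measured pluripotency genes, 0 were kept by the rule and 0 passed the test. Of the 4 targeted genes, 0 were kept. SMARCA4 held 1100 and 985 in shSMARCA4 against 8086 and 8374 in shLUC, and KDM1A held 3290 and 1879 in shKDM1A against 6344 and 5925. E2F6 held 336 and 304 in shE2F6 against 491 and 553, and MAFK held 82 and 216 in shMAFK against 212 and 288. The MAFK value of shMAFK replicate 2 thus lay between the controls. Under its own hairpin only SMARCA4 passed against shLUC (limma adjusted p 8.55e-05). KDM1A (0.132), E2F6 (0.774) and MAFK (0.572) did not. The word knockdown names the hairpin groups here, whatever the level of their target. Replicates differed most in shKDM1A, with an SD on the log2 scale of 0.53 over all rows against 0.264 to 0.335 in the other groups. In bulk RNA, fewer cells of a type and less RNA per cell cannot be told apart.

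The mean of the 4 knockdown groups was compared with shLUC by limma across all rows, on log2(value + 1), with 9.11 degrees of freedom for the spread. A log2 difference below is this mean minus the shLUC mean. At a limma adjusted p under 0.05, 5 of 14785 rows passed (0.0338%), 3 higher (0.0203%) and 2 lower (0.0135%), and all 5 were kept by the rule. LAMC3, CTCFL and MAL2 rose, by 1.18, 1.54 and 1.13 on the log2 scale. RIPOR2 and FZD2 changed by -1.23 and -1.90. Before adjustment 944 rows (6.38%) had a p under 0.05, 476 higher (3.22%) and 468 lower (3.17%); 319 of the 944 were kept by the rule and 625 had overlapping values. With a separate weight for each group, 47 rows passed (0.318%), of which 28 were kept. The number of rows past the threshold was 0 when either shLUC, either shMAFK or either shE2F6 library was left out, with 398 to 946 rows at an unadjusted p under 0.05. It was also 0 (389 unadjusted) when the 8 knockdown libraries were treated as 1 group.

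**Figure D1:**
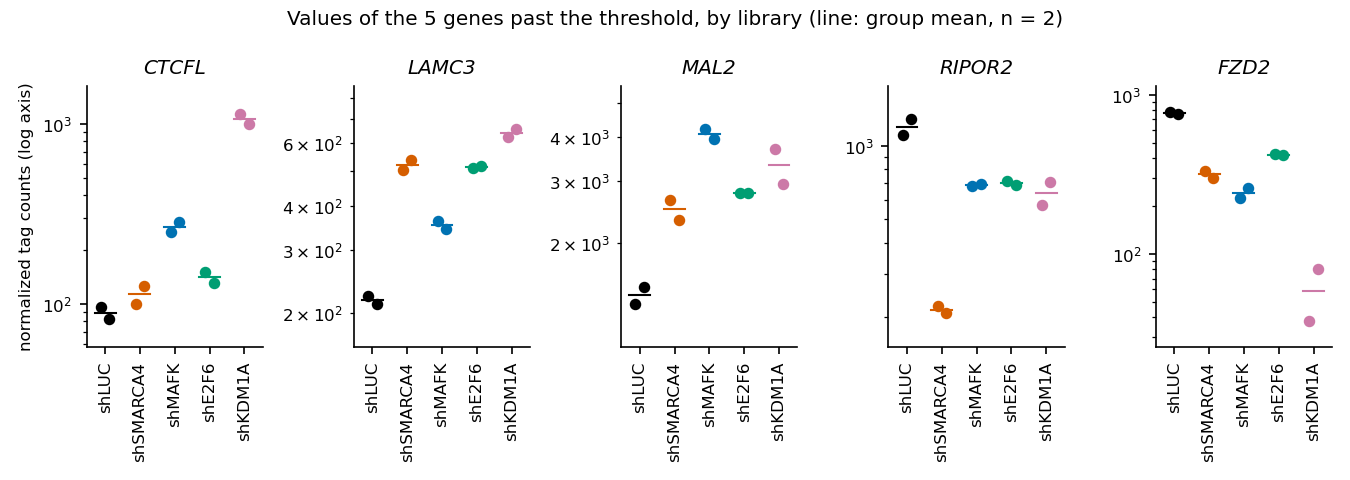
Normalized tag counts (log axis) of the 5 genes past the threshold, 1 point per library and a line at each group mean (n = 2). CTCFL, LAMC3 and MAL2 lie above both shLUC points in all 8 knockdown libraries and RIPOR2 and FZD2 below them, with CTCFL highest and FZD2 lowest in shKDM1A and RIPOR2 lowest in shSMARCA4.

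The laminin LAMC3 had the smallest p. It encodes the gamma-3 chain of laminin, the trimeric protein that forms the mesh of basement membranes. LAMC3 (ENSG00000050555; chromosome 9, 131009082 to 131094473, plus strand, GRCh38) held 224 and 213 in shLUC. It held 502 and 537 in shSMARCA4, 509 and 516 in shE2F6, 363 and 344 in shMAFK and 621 and 654 in shKDM1A. The lowest knockdown library was thus clear of the higher control, and each pair of replicates lay close together. Group means were 218.5 ± 7.78 (SD, n = 2) in shLUC and 353.5 ± 13.4 to 637.5 ± 23.3 in the knockdowns. The log2 difference was 1.18 (SE 0.11, limma adjusted p 0.0189). The 4 knockdowns also differed from one another (limma F-test adjusted p 0.0281), with shMAFK nearest to the control.

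LAMA2 and LAMA1, the alpha-2 and alpha-1 chains, were the other laminins kept by the rule. LAMA2 held 248 and 260 in shLUC and 311 to 649 in the knockdowns, a log2 difference of 0.81 (SE 0.13, limma adjusted p 0.101). LAMA1, an alpha chain of embryonic basement membranes, held 3026 and 3046 in shLUC and 3208 to 5925 in the knockdowns. Its log2 difference was 0.40 (SE 0.15, limma adjusted p 0.645), so neither alpha chain passed the test. The other 7 of 10 measured laminins overlapped the controls. LAMA5, for example, held 11280 and 14837 in shLUC, 7442 and 8630 in shSMARCA4 and 19696 and 25026 in shMAFK. In the adhesion and matrix list, 51 genes were measured, 3 lay above the controls (ITGA1, LAMA1 and LAMC3), 0 below, and 1 passed. The kept share was 5.88%, beside 3.92% of all rows. The list's median log2 difference was 0.044, beside -0.0077 over all rows.

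FZD2, a Frizzled receptor for Wnt ligands, had the largest fall among the rows that passed. FZD2 (ENSG00000180340; chromosome 17, 44557459 to 44559570, plus strand) held 780 and 755 in shLUC. Under the hairpins it held 333 and 300 in shSMARCA4, 422 and 418 in shE2F6, 224 and 258 in shMAFK and 38 and 80 in shKDM1A. Every knockdown library was therefore well under the controls, and shKDM1A was lowest by a wide margin. The log2 difference was -1.90 (SE 0.23, limma adjusted p 0.0464). The knockdowns differed from one another (limma F-test adjusted p 0.00277), from 59 ± 29.7 in shKDM1A to 420 ± 2.83 in shE2F6 (SD, n = 2). The log2 difference was -1.27 without both shKDM1A libraries (limma adjusted p 0.00751) and -2.10 without both shSMARCA4 libraries, where it did not pass (limma adjusted p 0.106). FZD2 passed in 8 of 22 alternatives, with limma adjusted p from 0.00059 to 1.

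ROR2, a tyrosine kinase receptor for WNT5A, lay on the opposite side. It held 210 and 204 in shLUC and 246 to 499 in the knockdowns, with a log2 difference of 0.74 (SE 0.13, limma adjusted p 0.147). FZD3, another Frizzled receptor, held 1983 and 2122 in shLUC and 2130 to 2376 elsewhere, a log2 difference of only 0.15. PORCN, which attaches the lipid to Wnt proteins, held 214 and 216 in shLUC and 66 to 206 in the knockdowns. FZD3 and PORCN had an unadjusted limma p of 0.201 and 0.221 and are named after their values were seen. Of 39 measured genes on the Wnt list, 2 lay above the controls, 2 below and 1 passed. The kept share was 10.3%, beside 3.92% of all rows, on a list written with earlier results of these data known. The other 7 of 9 measured Frizzled receptors overlapped the controls.

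CTCFL, also called BORIS, is a germline paralog of the chromatin insulator CTCF and is normally silent outside the testis. CTCFL (ENSG00000124092; chromosome 20, 57495966 to 57525652, minus strand) held 96 and 82 in shLUC, 100 and 126 in shSMARCA4 and 151 and 131 in shE2F6. It held 252 and 284 in shMAFK and 1140 and 995 in shKDM1A. The shSMARCA4 pair was close to the controls, with a gap of only 0.058 on the log2 scale, while shKDM1A was far above every other group. The log2 difference was 1.54 (SE 0.15, limma adjusted p 0.0189), and without both shKDM1A libraries it was 0.86 (limma adjusted p 0.0941; 0.00137 to 1 over 22 alternatives). The knockdowns differed from one another with a limma F-test adjusted p of 0.000299. By hairpin, the log2 differences from shLUC were 0.34 for shSMARCA4, 1.58 for shMAFK, 0.66 for shE2F6 and 3.57 for shKDM1A.

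CTCF itself overlapped the controls, with 1971 and 1885 in shLUC and 1855 to 2421 in the knockdowns. Of 30 measured genes of the CTCF and cohesin list, CTCFL, SMC1A and YY1 lay above the controls and 0 below, with a median log2 difference of 0.078. The kept share was 10%, beside 3.92% of all rows, on a list written with earlier results of these data known. SMC1A, a cohesin subunit, held 3126 and 3583 in shLUC and 3673 to 4704 in the knockdowns (log2 difference 0.31, SE 0.12, limma adjusted p 0.682). Among 12 measured germline genes CTCFL was the 1 kept by the rule (8.33%). MAGEA4, a cancer-testis gene, held 354 and 358 in shKDM1A but 6 and 15 in shSMARCA4 against 11 and 22 in shLUC, and so overlapped.

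MAL2, a membrane protein of apical transport in epithelial cells, was the third gene that rose. MAL2 (ENSG00000147676; chromosome 8, 119165034 to 119245673, plus strand) held 1338 and 1502 in shLUC and 2650 and 2331 in shSMARCA4. It held 4228 and 3966 in shMAFK, 2768 in both shE2F6 libraries, and 3698 and 2952 in shKDM1A. All knockdown libraries were at 2331 or above, and shMAFK was highest. The log2 difference was 1.13 (SE 0.13, limma adjusted p 0.0376), and the differences among the knockdowns did not pass (limma F-test adjusted p 0.0806). Exons of MAL2 overlap those of MAL2-AS1 on the other strand, and without stated strand-specific counting their reads cannot be told apart. MAL2-AS1 held 262 and 212 in shLUC and 216 to 657 in the knockdowns, with 216 in shKDM1A replicate 1 between the controls.

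RIPOR2 and RIPOR1 belong to 1 family of proteins with roles in cell polarity and migration, and they lay on opposite sides of the controls. RIPOR2 (ENSG00000111913; chromosome 6, 24804281 to 25042170, minus strand) held 1108 and 1278 in shLUC and 220 and 206 in shSMARCA4. The other hairpins gave 686 and 699 (shMAFK), 716 and 692 (shE2F6) and 574 and 710 (shKDM1A). These 6 libraries formed a narrow band below the controls, and shSMARCA4 was lower still. The log2 difference of RIPOR2 was -1.23 (SE 0.13, limma adjusted p 0.0189). Without both shSMARCA4 libraries it was -0.81 (limma adjusted p 0.342; 0.00123 to 1 over 22 alternatives).

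RIPOR1 (ENSG00000039523; chromosome 16, 67518418 to 67546788, plus strand) held 48 and 58 in shLUC, 275 and 419 in shSMARCA4 and 165 and 118 in shMAFK. It held 160 and 210 in shE2F6 and 108 and 166 in shKDM1A. It had the widest gap of any kept row, 0.89 on the log2 scale between the nearest knockdown and control libraries. Its log2 difference of 1.79 (SE 0.24) missed the threshold (limma adjusted p 0.0806). Exons of RIPOR1 overlap those of 4 other annotated genes on the other strand. RIPOR3 overlapped the controls, with 80 and 53 in shLUC and 43 to 356 in the knockdowns.

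The sequences upstream of CTCFL and RIPOR2 are shown because both genes passed the test and had an entry in the RefSeq set used. Each is the stretch of 200 bases from 250 to 51 bases before the outermost RefSeq start, on GRCh38.p14, read 5′ to 3′ on the gene's strand, with CpG dinucleotides in capitals. They lie at chr20:57525703-57525902 and chr6:25042219-25042418, both on the minus strand.
CTCFL: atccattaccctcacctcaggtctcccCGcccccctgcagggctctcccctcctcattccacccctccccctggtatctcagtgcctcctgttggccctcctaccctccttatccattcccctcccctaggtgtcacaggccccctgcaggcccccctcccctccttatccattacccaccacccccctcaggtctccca
RIPOR2: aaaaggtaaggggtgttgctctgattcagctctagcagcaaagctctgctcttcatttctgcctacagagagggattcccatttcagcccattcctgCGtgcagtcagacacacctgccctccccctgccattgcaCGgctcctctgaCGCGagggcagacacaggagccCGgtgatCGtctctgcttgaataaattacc
The CTCFL stretch holds 1 CpG at 64.5% GC, and that of RIPOR2 6 at 54.5%, against a median of 8 CpG over 35116 RefSeq windows of this length. Neither stretch holds TTCCCGC (an E2F site), CACGTG (an E-box) or TGACNNNGC (an antioxidant response element) on either strand. Over all windows the shares with a match were 4.39%, 4.51% and 8.27%. LAMC3, FZD2 and RIPOR1 are named only. A comparison over all kept genes was void, because 412 of 535 (77.0%) had an entry.

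A wide gap to the controls with little difference between hairpins marked RELB, a subunit of the alternative NF-kappa-B pathway. RELB held 53 and 52 in shLUC, 123 and 114 in shSMARCA4, 134 and 142 in shE2F6, 132 and 136 in shMAFK and 88 and 116 in shKDM1A. The knockdown libraries were all at least 88, and those of 3 hairpins were nearly level. Its log2 difference was 1.20 (SE 0.18, limma adjusted p 0.0806), and the F-test among the knockdowns gave a limma adjusted p of 0.464. NFKB2, the partner of RELB and named after its values were seen, held 365 and 362 in shLUC and 388 to 688 in the knockdowns (log2 difference 0.40, limma adjusted p 0.804). NFKB1, RELA and REL overlapped the controls.

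Several other genes above the controls were among the 12 with the smallest p in that direction but did not pass. EFHD1, a calcium-binding protein of mitochondria, held 68 in both shLUC libraries and 106 to 245 in the knockdowns, with shKDM1A highest (245 and 242). Its log2 difference was 1.10 (SE 0.16, limma adjusted p 0.0806). SALL3, a zinc finger factor of the spalt family, held 903 and 1018 in shLUC, 2296 and 2474 in shSMARCA4 and 1983 and 2098 in shMAFK. It was near the controls in shE2F6 (1155 and 1041) and at 1384 and 1487 in shKDM1A. The log2 difference of SALL3 was 0.79 (SE 0.12, limma adjusted p 0.0806), while SALL1, SALL2 and SALL4 overlapped the controls. SPP1, the secreted matrix protein osteopontin, held 196 and 158 in shLUC, 824 and 839 in shSMARCA4 and 217 to 382 elsewhere (limma adjusted p 0.12). VENTX, a homeobox factor, held 120 and 96 in shLUC and 127 to 276 in the knockdowns (log2 difference 0.95, limma adjusted p 0.164). ACSL4, which activates long-chain polyunsaturated fatty acids, held 784 and 916 in shLUC and 1163 to 1792 in the knockdowns (log2 difference 0.71, limma adjusted p 0.164).

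Below the controls, LGALS3BP, OLFM1 and STMN2 followed the 2 genes that passed. LGALS3BP, a secreted galectin-binding glycoprotein, held 1071 and 1098 in shLUC and 38 and 66 in shSMARCA4, but 866 and 948 in shMAFK. Its values were 726 and 662 in shE2F6 and 729 and 873 in shKDM1A, so 1 hairpin made most of its log2 difference of -1.44 (SE 0.19, limma adjusted p 0.07). OLFM1, a secreted protein of the nervous system, held 1046 and 1105 in shLUC and 334 to 872 in the knockdowns (log2 difference -0.84, limma adjusted p 0.0806). STMN2, a microtubule regulator of axons, held 198 and 249 in shLUC, 45 in both shSMARCA4 libraries and 88 to 162 elsewhere (log2 difference -1.24, limma adjusted p 0.0806). NCAM1, a neural adhesion molecule, held 274 and 304 in shLUC and 46 to 234 in the knockdowns, with a log2 difference of -1.01 (limma adjusted p 0.309). Its paralog NCAM2, named after its values were seen, lay on the other side, with 57 and 85 in shLUC and 91 to 214 in the knockdowns (log2 difference 1.01, limma adjusted p 0.376).

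For the ectoderm list, 14 genes were measured, of which NCAM1 was kept (7.14%, beside 3.92% of all rows) and 0 passed. At an unadjusted limma p under 0.05 there were 5, all lower, where 3.17% of all rows were. Of the 14, 0 had a positive log2 difference, beside 47.1% of all genes, and the median was -0.56, beside -0.0077 over all rows. The summed level of these markers was 25233 and 25574 in the controls and ran from 15780 (shSMARCA4 replicate 2) to 25430 in the knockdowns, so the sums overlapped. Markers of other lineages also varied between libraries. Summed mesendoderm markers (9 measured) held 4917 to 5788 in the controls and 2673 (shMAFK replicate 2) to 17691 (shSMARCA4 replicate 1) in the knockdowns. Fibroblast and mesenchyme markers (10 measured) held 23095 to 23675 in the controls and 11958 (shSMARCA4 replicate 1) to 37142 (shKDM1A replicate 1) in the knockdowns, and trophoblast and amnion markers (5 measured) held 17743 to 18056 and 13366 to 23418. Of these 3 lists 0 genes were kept and 0 passed, with 0, 3 and 1 genes at an unadjusted limma p under 0.05, and no marker of any list was at 0 in all libraries. The part of such cells in the results was not tested.

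TRPC4, a calcium channel, and PHC2, a Polycomb subunit, showed how the hairpins divided. TRPC4 held 347 and 289 in shLUC, 94 and 82 in shSMARCA4, 122 and 154 in shE2F6, 204 and 258 in shMAFK and 116 and 144 in shKDM1A (limma adjusted p 0.0806). PHC2 held 209 in both shLUC libraries and 150 and 188 in shSMARCA4, but 63 and 62 in shE2F6, 66 and 94 in shMAFK and 62 and 78 in shKDM1A. For PHC2 shSMARCA4 was thus the hairpin nearest to the control. Its log2 difference was -1.25 (SE 0.21, limma adjusted p 0.12, F-test adjusted p 0.0338), and PHC1 and PHC3 overlapped the controls. RRAGD, a GTPase of amino acid sensing, held 704 and 674 in shLUC and 300 to 645 in the knockdowns (limma adjusted p 0.211). CCNA1, a cyclin of the germline, held 209 and 183 in shLUC and 46 to 172 in the knockdowns (limma adjusted p 0.28). ST14, a membrane protease of epithelia, held 883 and 896 in shLUC and 282 to 752 in the knockdowns (limma adjusted p 0.28). AGAP3 held 1454 and 1604 in shLUC and 832 to 1356 elsewhere, and LGI2 held 290 and 293 and 96 to 258, each with a limma adjusted p of 0.28.

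**Figure D2:**
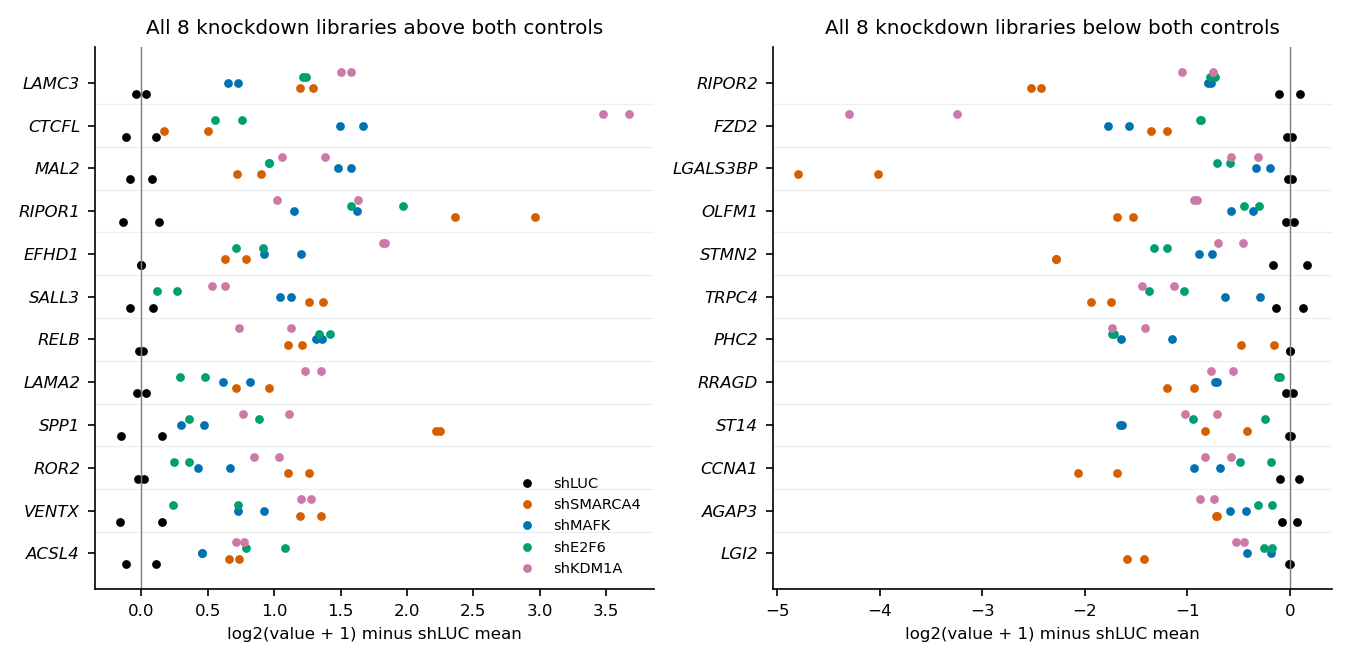
Log2(value + 1) minus the shLUC mean for the 12 genes with the smallest p in each direction, 1 point per library, colours giving the group. RELB shows the 8 knockdown libraries close together, whereas CTCFL (shKDM1A) and LGALS3BP (shSMARCA4) show 1 hairpin far from the other 3.

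Most kept rows stood only slightly apart. Above the controls, log2 differences ran from 0.11 to 1.79 with a median of 0.39, and 16 of 304 rows reached a 2-fold difference. Below, they ran from -0.11 to -3.04 with a median of -0.36, and 15 of 275 reached 2-fold. The gap between the nearest knockdown and control libraries was under 0.1 on the log2 scale for 191 rows above and 195 below, and at least 0.5 for 8 and 3. The 2 controls lay closer together for kept rows (median distance 0.079) than for all rows (0.15), as the rule favours rows whose controls are close.

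Further genes beyond 2-fold are named here after their values were seen. DYSF, a membrane repair protein of muscle, held 741 and 674 in shLUC, 136 and 127 in shSMARCA4 and 152 to 630 elsewhere (log2 difference -1.17, limma adjusted p 0.346). IGFBP5, a binding protein of insulin-like growth factors, held 104 and 100 in shLUC and 21 to 82 in the knockdowns (log2 difference -1.21, limma adjusted p 0.485). APLN, a secreted peptide of blood vessels, held 198 and 113 in shLUC and 30 to 96 in the knockdowns (log2 difference -1.39, limma adjusted p 0.402). ATP10B held 90 and 126 against 21 to 72, and MICAL2 held 106 and 95 against 6 to 87. Above the controls, MELTF, an iron-binding surface protein, held 34 and 53 in shLUC, 311 and 166 in shKDM1A and 57 to 150 elsewhere (log2 difference 1.31, limma adjusted p 0.309). IRAK2, a kinase of interleukin-1 signalling, held 48 and 29 against 54 to 168, and CNTNAP3C held 14 and 34 against 39 to 138. SLAIN1 held 522 and 444 in shLUC and 708 to 1124 in 7 knockdown libraries, but 3604 in shKDM1A replicate 1.

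Rows with wide gaps included some with low values. AC245100.7, a long noncoding RNA on chromosome 1, held 19 and 18 in shLUC and 30 to 91 in the knockdowns (limma adjusted p 0.28). KANK4 and IL4I1, named after their values were seen, held 9 and 14 against 24 to 91, and 32 and 34 against 52 to 126. Below the controls, PDE11A, a phosphodiesterase, held 100 and 106 in shLUC and 48 to 67 in the knockdowns (log2 difference -0.80, limma adjusted p 0.402). CLC held 106 and 114 in shLUC and 13 to 79 elsewhere (limma adjusted p 0.485). AC025176.1, a noncoding RNA on chromosome 5, held 91 and 121 in shLUC, 53 in both shSMARCA4 libraries and 2 in 4 other libraries. Its replicates split between 2 and 66 in shMAFK and 2 and 48 in shE2F6, so its log2 difference of -3.04 had an SE of 1.27.

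**Figure D3:**
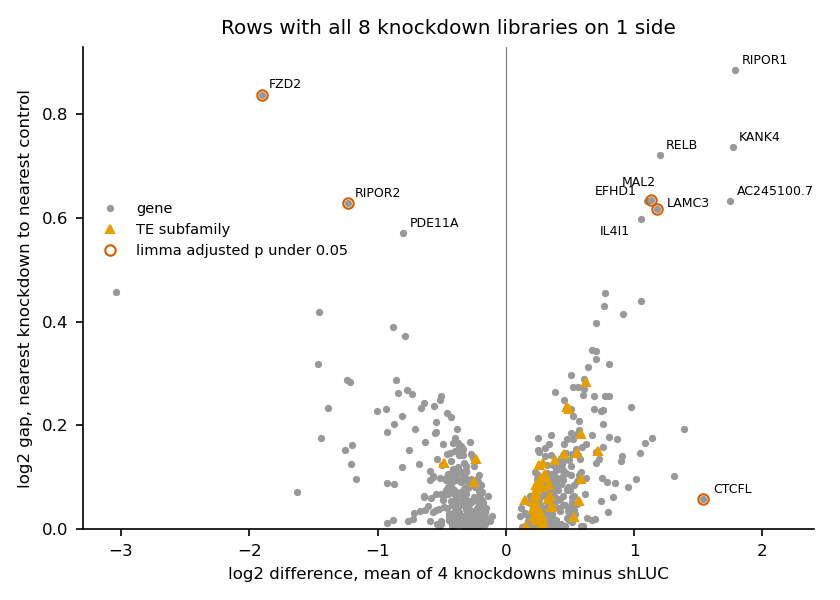
Log2 difference (mean of the 4 knockdowns minus shLUC) against the log2 gap between the nearest knockdown and nearest control libraries, 1 point per kept row, 579 in all. Most points lie at a gap under 0.1, and CTCFL passed the threshold at a gap of 0.058 while RIPOR1, with a gap of 0.89, did not.

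Near the edge of the rule, values differed by a few counts. Just inside above were HLCS (461 in the higher control, 462 in the lowest knockdown library), PGGT1B (446 and 447) and FAM208A (1776 and 1780). Just outside were the TE subfamily L1PA8A (936 and 934), SLMAP (1181 and 1178) and CRY1 (743 and 741). Just inside below were ANO10 (1112 in the lower control, 1110 in the highest knockdown library) and TMEM69 (838 and 836). HEBP1 (916 and 918), BAHD1 (1340 and 1343) and NAPB (401 and 402) were just outside. FAM208A encodes TASOR, the scaffold of the HUSH silencing complex, and held 1418 and 1776 in shLUC and 1780 to 3507 in the knockdowns.

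How far the hairpins differed within the kept rows was then examined. For 211 of the 579 rows shSMARCA4 was the group farthest from the control, for 205 shKDM1A, for 88 shMAFK and for 75 shE2F6. The nearest group was shE2F6 for 193 rows and shMAFK for 171. The F-test among the 4 knockdowns passed for 982 of all rows (6.64%) and for 30 of the 579 (5.18%). Set singly against shLUC, shSMARCA4 had 618 rows past the threshold (4.18%), of which 72 were kept rows. For shKDM1A 4 rows passed (0.0271%), all 4 kept, and for shMAFK 2 passed (0.0135%), 1 of them kept. For shE2F6 0 rows passed (0%; 752 had an unadjusted limma p under 0.05). These comparisons share their controls with the rule and with each other, so nothing is read from these counts.

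Genes of stress responses were listed as well. Every group, shLUC included, received virus, a hairpin and puromycin, so a response common to all groups does not show in this comparison. The cause of any difference in these genes was not tested. JUN, an immediate early transcription factor, held 191 and 188 in shLUC, 1007 and 639 in shSMARCA4, 247 and 269 in shE2F6, 288 and 216 in shMAFK and 891 and 392 in shKDM1A. The knockdown libraries were all above the controls, and the widest splits between replicates were in the 2 groups with the highest values. The log2 difference of JUN was 1.14 (SE 0.28, limma adjusted p 0.363). PHLDA1, a second gene of that list, lay below the controls, with 2910 and 2922 in shLUC and 1232 to 2618 in the knockdowns (limma adjusted p 0.376). Of 31 measured immediate early genes, 1 lay above, 1 below (6.45% kept, beside 3.92% of all rows) and 0 passed.

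HSPA4L, a heat shock protein, held 178 and 209 in shLUC and 210 to 382 in the knockdowns (limma adjusted p 0.402). GCLM, a subunit of the enzyme that limits glutathione synthesis, held 254 and 314 and 322 to 482 (limma adjusted p 0.513). CCNG1, a p53 target, held 11997 and 11635 and 7680 to 10534 (limma adjusted p 0.492). These were the 1 of 20 heat shock (5%), 1 of 25 antioxidant (4%) and 1 of 28 p53 response genes (3.57%) kept by the rule. Of all rows, 3.92% were kept. Of 25 interferon and innate immunity genes 0 were kept, and 12 had a positive log2 difference. Of 40 genes of the integrated stress and unfolded protein responses 0 were kept, while 31 had a positive log2 difference, with a median of 0.16. ATF5, a factor of that response, held 74 and 116 in shLUC and 112 to 1530 in the knockdowns, with 1530 and 1454 in shMAFK, and so overlapped (limma adjusted p 0.0806). Among 19 genes of the RNA interference and microRNA machinery, ADARB1 was the 1 kept (330 and 353 in shLUC, 357 to 414 in the knockdowns), with a limma adjusted p of 0.915.

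The remaining lists held few kept genes and no calls. TGFBR3, a co-receptor for TGF-beta ligands, held 201 and 192 in shLUC and 75 to 162 in the knockdowns (limma adjusted p 0.346), and was the 1 of 40 genes kept from the TGF-beta, BMP and Nodal list. FAM162A, a hypoxia-induced mitochondrial protein, held 2331 and 1964 in shLUC and 1140 to 1950 in the knockdowns (limma adjusted p 0.363). BICRAL, a subunit of a BAF complex variant, held 474 and 408 and 506 to 897 (limma adjusted p 0.582), and the other 27 of 28 measured BAF genes overlapped. Of 58 chromatin silencing genes, FAM208A and EZH2, the Polycomb methyltransferase, lay above the controls, EZH2 with 985 and 836 in shLUC and 1026 to 1163 in the knockdowns (limma adjusted p 0.785). Over all lists together 713 genes were measured, 25 were kept (17 above, 8 below; 3.51%), close to the 3.92% of all rows, and 3 passed (2 higher, 1 lower). The lists' joint median log2 difference was 0.015. MCM10, a replication factor (885 and 898 in shLUC, 995 to 1186 in the knockdowns), YAP1, the Hippo effector (3315 and 3652, 3799 to 4487), and CASP9, an apoptosis caspase (408 and 404, 240 to 401), were the other kept list genes. These 3, ITGA1, YY1, ADARB1, EZH2, ATF5, MAGEA4 and LAMA5 fall outside the naming rule and were chosen after their values were seen.

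By position, kept genes lay on every chromosome but Y, from 2.79% of the rows on chromosome 20 to 6.25% on chromosome 21. Their median exon length was 6780 bases above the controls and 4850 below, beside 5060 for all genes. The part of length in the results was not tested. In 22 cases 2 kept genes were neighbours among the measured genes, and 15 of these pairs lay on the same side. Kept genes were 3.87% of all genes. How many neighbouring pairs that share alone would give was not tested, so the 22 pairs are not read as clustering. The longest run was SEC22C, SS18L2, NKTR and ZBTB47 on chromosome 3, all below the controls. Exons of SEC22C overlap those of SS18L2 and NKTR on the other strand, so these rows may share reads. SS18L2 held 834 and 762 in shLUC and 400 to 760 in the knockdowns, and ZBTB47 held 103 and 100 and 36 to 92. TRPC4 and the noncoding LINC02334 on chromosome 13 were also both below, the latter with 138 and 82 in shLUC and 21 to 78 in the knockdowns. MYL12A and MYL12B, near-identical myosin light chain genes on chromosome 18 that may share reads, were both below. MYL12A held 3413 and 3262 in shLUC and 2483 to 3074 in the knockdowns, and MYL12B held 2441 and 2520 and 1964 to 2404. These genes are named after their values were seen. Exons of 224 of the 535 kept genes overlap another gene on the other strand and of 81 on the same strand, so some of their reads may be shared.

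Kept TE subfamilies lay nearly all on the higher side. TEs are copies of mobile sequences, and a subfamily row sums the reads of many copies, so reads of nearby genes can enter it. Of 973 subfamilies, 41 lay above both controls (4.21%, beside 2.06% of all rows) and 3 below (0.308%, beside 1.86%). Before adjustment 25 subfamilies (2.57%) had a limma p under 0.05, all higher, below the 3.22% of all rows that were higher, and 0 passed after it. The median log2 difference was 0.047 over the 973 TE rows, 65.7% of them positive, and -0.015 over the 13808 genes, 47.1% of them positive. These counts moved with the control libraries: without shLUC replicate 2, 99 subfamilies lay above and 55 below, and without shLUC replicate 1, 139 above and 10 below. The share of all tag counts in TE rows was 14.5% in each control, 12.8% in shKDM1A replicate 1 and 14.4% to 16.0% in the other knockdown libraries.

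By family, the L1 group of LINE elements had 10 of 130 subfamilies above the controls, ERV1 11 of 274 and ERVL 8 of 115. ERVL-MaLR had 3 above and 1 below of 76, hAT-Tip100 DNA transposons had 3 of 32, and Alu and ERVK had 0 of 48 and 0 of 38. L1P2, a primate L1 subfamily, held 1722 and 1522 in shLUC, 2098 and 2851 in shSMARCA4, 1903 and 2082 in shE2F6, 2112 and 1903 in shMAFK and 2441 and 2530 in shKDM1A. Its lowest knockdown libraries were close to the higher control, and its log2 difference was 0.45 (SE 0.14, limma adjusted p 0.515). MER45C, a hAT-Tip100 element, held 247 and 264 in shLUC and 311 to 467 in the knockdowns (log2 difference 0.47, limma adjusted p 0.48). MSTB-int, the internal part of an ERVL-MaLR element, held 306 and 364 and 378 to 646 (log2 difference 0.57, limma adjusted p 0.492).

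Other L1 subfamilies, named after their values were seen, showed the same narrow margins. L1PA7 held 10950 in both shLUC libraries and 11635 to 15759 in the knockdowns, and L1PA5 held 9502 and 9296 and 10349 to 13575. L1PA4 held 10071 and 10349 in shLUC and 10757 to 14274 in the knockdowns. Subfamilies of 1 family have similar sequences and may share reads, so they are not independent. The 3 below the controls were Tigger10 (3874 and 3902 in shLUC, 3074 to 3528 in the knockdowns), MLT1L-int (94 and 97, 45 to 86) and UCON107 (362 and 368, 254 to 340). Their limma adjusted p lay between 0.786 and 0.875.

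**Figure D4:**
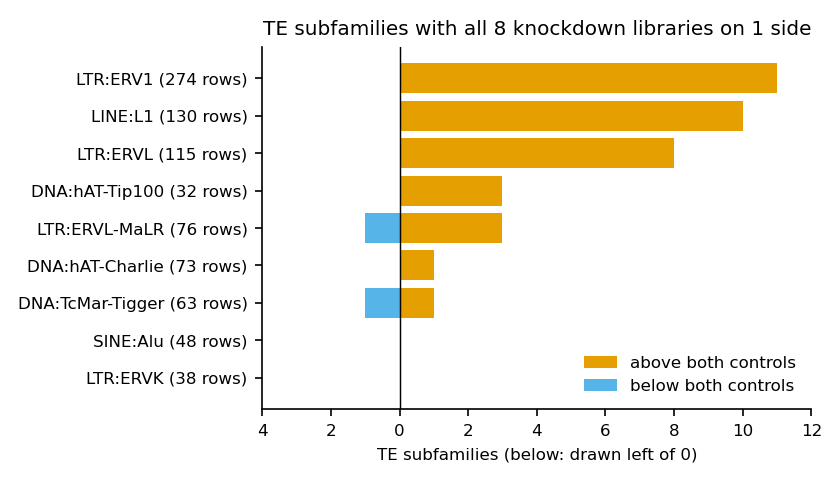
Number of TE subfamilies with all 8 knockdown libraries above (right of 0) or below (left of 0) both controls, for the families with at least 30 rows, whose row numbers stand in brackets. ERV1, L1 and ERVL hold 11, 10 and 8 of the 41 subfamilies above, and Alu and ERVK hold 0.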

How the data were processed

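RNA-seq values of 10 libraries (5 groups of 2) were taken from the table the authors deposited with 1 column per library. Groups and replicate numbers came from the sample titles. Values deposited by the authors are whole numbers and were handled as scores, in a unit abbreviated in the file header in a way read here as normalized tag counts, with equal medians and nearly equal totals. The submitters' processing notes name STAR, STARsolo and hg38. The counter, the annotation and the normalization are not given in the sources used here. Such values hide depth and differences in total RNA, so no counting interval is given, and values above 15000, found in 4 kept rows, move in wide steps. Equal values also recur across rows below 15000. For example, 11635 stands for STMN1 and PHC1 in shSMARCA4 replicate 1 and for CCNG1 in shLUC replicate 2. Steps are thus not confined to values above 15000, and narrow margins of high rows are to be read with care.

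Analysis used log2(value + 1) of rows averaging 10 or more, a filter that removed no row; the scale understates the change of low rows. The mean of the 4 knockdown groups minus shLUC, each knockdown, and a moderated F-test among the knockdowns came from 1 fit of 5 group means in limma 3.58.1 (R 4.3.3, mean-variance trend, two-sided, 5 residual degrees of freedom, Benjamini-Hochberg over all 14785 rows, threshold 0.05). The fit was tested on simulated data. The simulated rows had 1 spread shared by all groups, so the unequal replicate SDs of the data were not covered. Gene positions are from GENCODE 29 and matched all 13808 gene identifiers, while upstream sequences are from RefSeq (GRCh38.p14). Tables and plots used Python 3.11.15, pandas 2.3.3 and matplotlib 3.10.9. Columns not mapped to a sample numbered 0.

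Named rows were the targets and, among kept rows with a mean of at least 50 on the higher side, the 12 genes per direction with the smallest p. To these were added 3 TE subfamilies and 5 rows with the widest gap per direction, list members with an unadjusted p under 0.05, and 3 rows on each edge of the rule, 1 of which is not reported here. The kept rows, the lists and the named rows were chosen with earlier results of these data known. Alternatives covered pseudocount, filter, scaling, variance model, replicate number as a block, and leaving out each library or knockdown.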

Additional observations from a re-analysis of the deposited data

Results flagged for a closer look

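For 4 of the 5 genes that passed the comparison with shLUC, the size of the difference was not the same under the 4 hairpins, by limma's F-test among the knockdown groups. CTCFL had an adjusted p of 0.000299, with log2 differences from 0.34 in shSMARCA4 to 3.57 in shKDM1A. RIPOR2 had an adjusted p of 0.00172, with -2.48 in shSMARCA4 and -0.76 to -0.90 under the other hairpins. FZD2 had an adjusted p of 0.00277, with -3.77 in shKDM1A and -0.87 to -1.67 under the others. LAMC3 had an adjusted p of 0.0281, with 0.69 in shMAFK and 1.23 to 1.54 under the others.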

How the results depend on the processing

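Of the 22 alternatives, 1, division by the library median, repeats the main fit because the medians were already equal. The count of 5 rows past the threshold was 9 without the mean-variance trend, 47 with group weights and 0 when the knockdowns were 1 group. It was 2, 0, 1 and 34 without both libraries of shSMARCA4, shMAFK, shE2F6 and shKDM1A, and from 0 to 48 when 1 library was left out. With group weights all 5 were among the 47, of which 28 were kept by the rule and 19 overlapped the controls. The count was 22 without shKDM1A replicate 1 and 48 without shKDM1A replicate 2, each including all 5, and 4 without either shSMARCA4 library, which kept CTCFL and LAMC3 and added LGALS3BP and RPL13A. Over 22 alternatives CTCFL passed in 13, LAMC3 in 12, RIPOR2 in 10, MAL2 in 9 and FZD2 in 8, and their directions held in each. The 982 rows of the F-test became 1535 with group weights, 1, 490 and 2117 without both shSMARCA4, shMAFK or shKDM1A libraries, and 278 to 5302 with 1 library left out.

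The rule kept 1053, 1026, 1142 and 1163 rows without both libraries of shSMARCA4, shMAFK, shE2F6 and shKDM1A, and 667 to 2061 with 1 library left out; fewer libraries make the rule easier to meet. For TE subfamilies, the counts above and below were 139 and 10 without shLUC replicate 1 and 99 and 55 without shLUC replicate 2; these were added after seeing the data. The log2 difference of MAFK, -0.032, changed sign to 0.25 without both shMAFK libraries, 0.19 without shLUC replicate 2, 0.018 without shSMARCA4 replicate 2, 0.14 without shMAFK replicate 1 and 0.021 without shE2F6 replicate 2; with 1 library left out it ran from -0.25 to 0.19. That of E2F6, -0.14, became 0.053 without both shE2F6 libraries. Neither gene passed in any of these, and the cause was not tested except that leaving out a gene's own knockdown removes its low values. Where 1 library was left out, the lone sample of its group was assumed to vary like the others.

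Same-numbered replicates were not taken as pairs, since 2 of 10 correlations of their deviations exceeded 0.1 (-0.05 to 0.337). With the number as a replicate block, 4 rows passed (3 shared with the 5, and CUZD1), and 975 in the F-test. The unknown depth limits any statement on rows with low values.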
